A study of Homo sapiens with 10 samples.

Results

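The regions described here carried histone H3 monomethylated at lysine 4 (H3K4me1) and lay deep in gene deserts of hTERT-RPE1, a telomerase-immortalised human retinal pigment epithelial cell line labelled wild type. They were chosen by measured values and by position: an interval had to hold an H3K4me1 peak in both deposited lists, lie outside every RefSeq protein-coding gene, and be more than 250 kb from any end of such a gene. Of 104482 H3K4me1 regions on chromosomes 1 to 22 and X, 6110 (5.85%) met this rule. Another 36258 were intergenic but within 250 kb of a protein-coding gene, and 62114 overlapped one. The presence of H3K4me1 and the distance from genes are therefore the rule and not results.

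CUT&Tag, in which an antibody directs a transposase to cut and tag nearby DNA, was run for H3K4me1 (4 libraries) and for RNA polymerase II phosphorylated at serine 5 (Pol II, 6 libraries). All 10 libraries came from the 1 line with the same genotype, the labels name no treatment, and they do not say whether replicates were separate cultures. The authors merged libraries into 4 peak lists by their R number, so each target has a list 1 and a list 2, made from 2 H3K4me1 libraries or 3 Pol II libraries each. The lists hold no read counts, so the depth is unknown, and no expression values were used, so the labelled cell type was not checked against marker genes.

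H3K4me1 marks enhancers, DNA elements that raise transcription of genes that may lie far away, and it also flanks active promoters. Pol II phosphorylated at serine 5 of its C-terminal repeats is the form found at promoters and during early elongation, and it also occupies active enhancers. Gene deserts are long stretches without protein-coding genes, and some are known to hold long-range enhancers of developmental genes at their borders.

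No genome sequence was used here, but RefSeq promoter windows (GRCh38.p14) of non-coding genes fall inside some desert regions. They show the DNA of such promoters only, and 64.4% of desert regions overlapped no annotated gene. Of 1471 such promoters of 300 bases in deserts, 91 overlapped an H3K4me1 desert region, and 21 of these, from 19 genes, also overlapped a Pol II region found in both lists. The 5 below were picked after their values were seen, as the starts of non-coding RNAs that the results return to or that hold the motifs counted next. Each lies inside its H3K4me1 region and runs 5′ to 3′ on the gene's strand. Capitals mark matches, on either strand, to the 5 motifs spelled out and counted in the next paragraph.
LOC105370780 promoter, chr15:39173345-39173644, plus strand: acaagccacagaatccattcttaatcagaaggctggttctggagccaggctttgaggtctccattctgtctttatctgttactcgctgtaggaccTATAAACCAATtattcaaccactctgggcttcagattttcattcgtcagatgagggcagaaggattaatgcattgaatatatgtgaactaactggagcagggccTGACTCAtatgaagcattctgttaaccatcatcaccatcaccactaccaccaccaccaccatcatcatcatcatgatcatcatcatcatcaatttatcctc
LINC01638 promoter, chr22:27224630-27224929, minus strand: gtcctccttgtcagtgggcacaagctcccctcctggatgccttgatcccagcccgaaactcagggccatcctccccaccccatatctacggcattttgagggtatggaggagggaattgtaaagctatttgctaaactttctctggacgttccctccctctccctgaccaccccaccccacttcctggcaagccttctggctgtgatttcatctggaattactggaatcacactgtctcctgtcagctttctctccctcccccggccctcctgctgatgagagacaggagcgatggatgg
LOC105376235 promoter, chr9:115596433-115596732, plus strand: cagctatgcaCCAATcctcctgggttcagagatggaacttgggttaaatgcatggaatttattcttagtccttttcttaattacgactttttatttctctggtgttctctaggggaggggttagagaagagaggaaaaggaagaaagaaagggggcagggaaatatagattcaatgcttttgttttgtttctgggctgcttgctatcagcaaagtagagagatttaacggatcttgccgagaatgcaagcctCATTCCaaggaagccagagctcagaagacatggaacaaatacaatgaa
LOC105369165 promoter, chr2:52934452-52934751, minus strand: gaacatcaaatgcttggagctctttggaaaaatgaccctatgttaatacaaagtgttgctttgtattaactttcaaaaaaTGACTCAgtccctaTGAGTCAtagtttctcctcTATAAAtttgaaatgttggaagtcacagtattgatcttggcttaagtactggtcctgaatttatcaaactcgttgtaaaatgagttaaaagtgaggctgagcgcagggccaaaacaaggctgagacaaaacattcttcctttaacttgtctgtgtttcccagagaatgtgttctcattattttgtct
LINC02226 promoter, chr5:8457515-8457814, minus strand: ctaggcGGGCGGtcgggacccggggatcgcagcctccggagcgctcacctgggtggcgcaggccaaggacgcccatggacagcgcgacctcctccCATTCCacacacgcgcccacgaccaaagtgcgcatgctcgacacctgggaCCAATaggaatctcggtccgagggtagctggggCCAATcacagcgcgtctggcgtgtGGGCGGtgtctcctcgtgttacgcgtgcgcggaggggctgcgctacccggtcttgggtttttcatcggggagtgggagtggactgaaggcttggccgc

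TGANTCA, the site of AP-1 factors, occurred in 5 of the 21 promoters (23.8%), in 7.73% of all 34796 distinct RefSeq promoters and in 12.2% of 1377 desert promoters of distinct sequence without an H3K4me1 desert region. TATAAA, the core of the TATA box, occurred in 3 (14.3%), against 11.6% of all promoters and 29.6% of desert promoters without H3K4me1. CCAAT, bound by NF-Y, occurred in 8 (38.1%, against 34.6% and 39.3%). GGAATG, the core bound by TEAD factors, occurred in 5 (23.8%, against 14.0% and 16.8%). GGGCGG, the GC box of SP factors, occurred in 6 (28.6%), below its share in all promoters (44.9%) and above that in desert promoters without H3K4me1 (7.92%). Among these 6, windows of LINC00662 and LINC02987 shared an H3K4me1 region, as did those of LINC02226 and MIR4458HG. The 21 promoters held a median of 3 CpG dinucleotides, all promoters 14 and desert promoters without H3K4me1 2. Both strands were searched, the motifs may overlap, some of the 21 windows overlap each other, and a match is a description of the letters only.

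Deserts made up 637 Mb, or 21.0% of the 3030 Mb spanned by the chromosomes, and held 9.58 H3K4me1 regions per Mb. Density was lower at each step of distance, from 49.3 per Mb over protein-coding genes and 43.4 within 10 kb of one to 22.4 at 100 to 250 kb. Beyond the limit it was 15 per Mb at 250 to 500 kb, 10.1 at 500 to 1000 kb and 2.98 farther out. Stretches of at least 1 Mb without a peak in any list took up 50.1% of the desert span, and without them the density was 19.2 per Mb. Such stretches may include unassembled sequence, which could not be separated from empty assembled DNA without a genome, and leaving them out selects on the outcome.

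Peaks of the single lists gave the same picture of where each mark lies. Of H3K4me1 peaks, 5.70% in list 1 and 5.85% in list 2 were in deserts, and of Pol II peaks 3.34% and 3.10%. The H3K4me1 lists thus had the higher share, by 2.56 percentage points (5.77% ± 0.11 against 3.22% ± 0.17, SD, n = 2 lists each). An exact two-sided permutation test of the lists gave p = 0.333, the smallest value that 2 lists against 2 can give. With the limit at 100 kb the difference was 5.08 points, and at 500 kb 1.03.

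The desert regions were narrower than other H3K4me1 regions, with slightly higher fold enrichment and lower −log10 q at the median. Their median width was 892 bp, against 978 bp in the others, and ranged from 254 to 3664 bp. The authors' fold enrichment of the strongest peak in each region had medians of 5.76 in list 1 and 5.97 in list 2, against 5.30 and 5.33 in the others. The −log10 q medians were 14.4 and 13.9 against 16.7 and 14.5. The fold in list 1 was within 1.5 times that in list 2 for 93.5% of desert regions and for 94.4% of the others. Desert peaks of list 1 recurred in list 2 at 88.7%, and those of list 2 in list 1 at 85.1%, against 86.0% and 87.3% of peaks elsewhere.

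The 3 regions nearest the limit on each side are given as a description. Just inside lay chr6:22035131-22037156 (fold 10 and 8.93, with Pol II), chr18:67766886-67767288 (5.87 and 5.15, without) and chr8:34983567-34985258 (10.2 and 12.5, with). Just outside lay chr12:33771653-33772381 (3.98 and 4.29, without), chr14:58898214-58900052 (8.52 and 9.54, with) and chr2:67790256-67791249 (10.7 and 13.4, without). All coordinates are on hg38 and count from 1.

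A smaller share of desert regions than of other H3K4me1 regions carried Pol II in both Pol II lists. A Pol II region supported by both lists overlapped 837 of 6110 desert regions (13.7%, 95% Wilson interval 12.9 to 14.6), against 25.8% of all H3K4me1 regions, 20.9% of intergenic regions within 250 kb and 29.9% of regions over protein-coding genes. With list 1 alone the count was 1270 (20.8%, against 34.1% of all regions), and with list 2 alone 1104 (18.1%, against 33.1%). The use of list 1 alone thus raised the desert share by more than 1.5 times. These intervals cover counting error only, since neighbouring regions share libraries and are not independent.

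Counting each Pol II list separately, the desert share was lower than that of all other H3K4me1 regions by 14.1 points in list 1 and by 15.9 points in list 2 (19.4% ± 1.9 against 34.4% ± 0.63, SD, n = 2 lists). The mean difference was -15 points. An exact sign-flip permutation test over the 2 lists gave a two-sided p = 0.5, the smallest it can give. The share was lower in deserts on 21 of 23 chromosomes. The exceptions were chromosome 22, with 29.7% of 64 desert regions against 27.9% of the others, and X, with 22.2% of 99 against 20.4%. In both, most of the Pol II came from a single desert. That between CRYBA4 and MN1 held 63 of the 64 regions on chromosome 22, including all 19 that carried Pol II. On X, the desert between DIPK2B and KRABD4 had Pol II on 18 of its 36 regions, against 22 of 99 over the chromosome's deserts.

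The share with Pol II was lower in each successive distance band, without a step at 250 kb. It was 23.9% within 10 kb of a protein-coding gene, 17.3% at 100 to 250 kb, 15% at 250 to 500 kb, 12.9% at 500 to 1000 kb and 8.70% (54 of 621) beyond 1000 kb. Where Pol II was present, its median fold was higher in deserts (7.05 and 6.15) than in other regions (6.31 and 5.44), while its median −log10 q was lower (7.96 and 7.44 against 8.82 and 8.79).

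**Figure D1:**
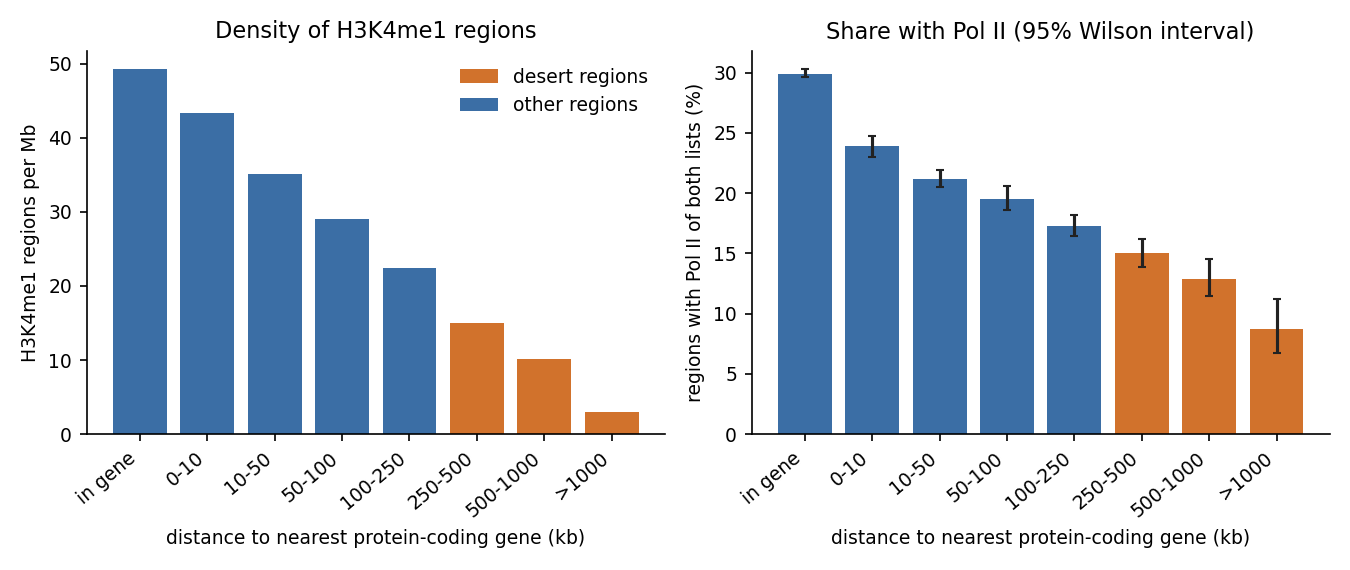
Left, H3K4me1 regions per Mb, and right, the percent of them with a Pol II region of both lists, by distance to the nearest protein-coding gene in kb. Bars are all regions of a distance band, error bars on the right are 95% Wilson intervals, and both quantities fall from left to right, the Pol II share from 29.9% to 8.70%.

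The lower share was present at every strength of H3K4me1. Regions were ranked by −log10 q, averaged over the lists as percentiles, and all H3K4me1 regions were divided into 4 classes of equal size, a division made after the data were seen. In the weakest class 0.588% of desert regions had Pol II, against 5.17% of the others, and in the second 3.89% against 13.7%. In the next class the shares were 12.3% and 29.2%, and in the highest 41.7% (588 of 1411) and 58.0%. Pol II thus lay mainly on the strongest desert regions: 588 of the 837 with Pol II were in the strongest class. The same held elsewhere, with 14336 of 26149 among all other regions and 4975 of 7566 among intergenic regions within 250 kb. Desert regions also had the lower share in each of 4 width classes, with 1.58% against 8.76% up to 500 bp and 34.2% against 48.6% above 1500 bp.

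**Figure D2:**
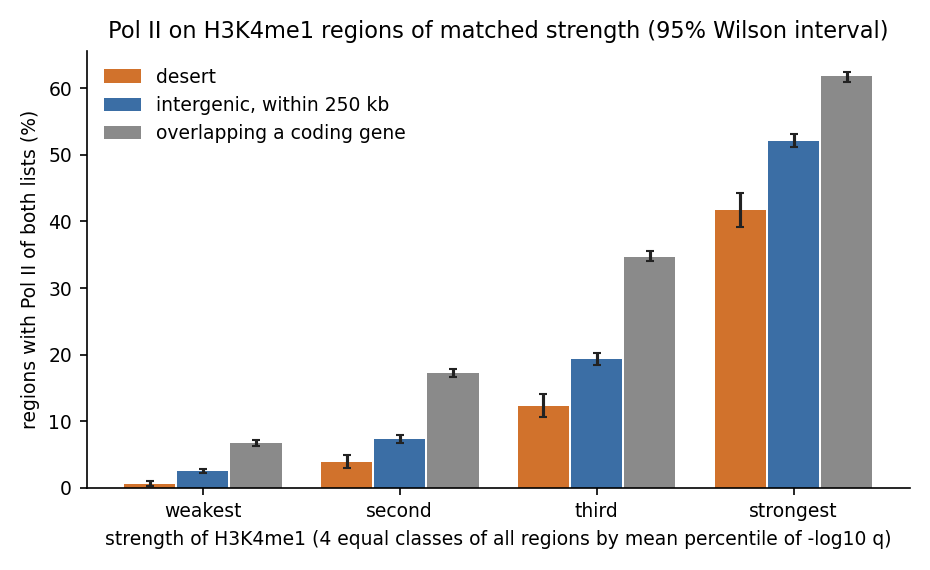
Percent of H3K4me1 regions with a Pol II region of both lists, by 4 classes of H3K4me1 strength, for desert regions, other intergenic regions and regions over protein-coding genes. Error bars are 95% Wilson intervals; in each class the desert bar is the lowest, from 0.588% to 41.7%.

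Desert regions with Pol II were wider and more enriched for H3K4me1 than those without. Their median width was 1247 bp, and the H3K4me1 folds had medians of 7.64 and 8.16. The 4588 regions with no Pol II peak in either list had a median width of 799 bp and folds of 5.31 and 5.50. The summits of both marks were close together, with a median distance of 68 bp in list 1 and 69 bp in list 2, and 77.5% and 75.6% within 150 bp.

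The strongest Pol II among desert regions, by mean percentile of −log10 q, was at chr4:123986155-123987731 between SPRY1, an inhibitor of receptor tyrosine kinase signalling, and ANKRD50. Its Pol II folds were 20.1 and 14.9 and its H3K4me1 folds 6.70 and 9.31, and no annotated gene overlapped it. Of the 10 strongest, 3 lay in 1 cluster between ACTBL2 and PLK2, which encodes a polo-like kinase. There chr5:57823328-57824485 and chr5:57824812-57826033 shared a single Pol II peak, with folds of 13.8 and 9.16, and chr5:57803627-57804805 had 14.7 and 10.3. Between KLF6, a zinc finger transcription factor, and AKR1E2, chr10:4344103-4345292 had the highest Pol II fold of list 1 among these 10, with 21.9 against 14.1 in list 2. Of the 10, 8 overlapped no annotated gene of any kind, as did 64.4% of all desert regions.

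All of the 10 desert regions strongest in H3K4me1 had Pol II in both lists. In the whole strongest class the share was 41.7% in deserts and 58.0% elsewhere. The first of the 10, chr8:128108422-128109940, lay 365 kb from MYC, the growth-promoting transcription factor, with H3K4me1 folds of 11.2 and 11.7 and Pol II folds of 12.6 and 9.66. The region with the highest folds of the 10, chr13:64723421-64724297 890 kb from the nearest protein-coding model, LOC647264, reached 17.7 and 18.1 with Pol II folds of 17.9 and 9.43. Of the 10 widest regions 8 had Pol II, against 34.2% of desert regions above 1500 bp and 48.6% of others that wide. The widest, chr5:125408574-125412237 between ZNF608 and GRAMD2B, spanned 3664 bp with Pol II folds of only 5.50 and 4.42. One of the 10 widest, chr8:48316431-48319330, held Pol II peaks of both lists that did not overlap each other and was not counted.

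Of the 10 regions farthest from protein-coding genes, 9 lay in the desert between PCDH7, a protocadherin, and ARAP2, at 2170 to 2350 kb from the nearer gene. Pol II was found at 2 of these 10. One, chr4:33715206-33716525, had H3K4me1 folds of 12.6 and 14.4 and Pol II folds of 6.21 and 7.76. The farthest of all, chr22:10682696-10684009, was 4840 kb from OR11H1 and had no Pol II peak. The gene table places some models at coordinates of alternative scaffolds, so the left border of that desert is not named.

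Desert regions came in clusters, though less densely than H3K4me1 regions elsewhere. Joining regions less than 20 kb apart gave 722 clusters of 3 or more, which held 3675 of the 6110 (60.1%), 587 pairs and 1261 single regions. When all H3K4me1 regions were joined in the same way, 61.8% of desert regions and 81.4% of the others were in clusters of 3 or more, against 80.3% of all. The median gap to the nearest H3K4me1 region was 6.12 kb in deserts, while regions spread evenly over the desert span would be 104 kb apart. For intergenic regions within 250 kb of a gene the values were 4.67 kb and 31.2 kb. The even-spacing figure includes the peak-free stretches. The gap is the smaller of those on either side, to any H3K4me1 region. Regions placed at random would also have a median gap below the even spacing, so this contrast does not measure clustering.

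Larger clusters had a larger share of regions with Pol II. It was 9.12% in single regions, 11.3% in pairs, 14.4% in clusters of 3 to 5, 16.6% in those of 6 to 9 and 19.2% in those of 10 or more (145 of 754). The H3K4me1 fold went the other way, with medians of 6.37 and 6.75 in single regions and 5.30 and 5.49 in clusters of 10 or more, whereas the median −log10 q percentile rose from 50.6 to 60.4. Whether strength accounts for the difference in Pol II between cluster sizes was not tested.

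The largest cluster spanned 204 kb at chr15:39118294-39322486, between RASGRP1, a Ras activator, and the model LOC124903470. Its 30 regions covered 16.7% of that span, and 13 of them had Pol II in both lists. The share with Pol II was 13.7% over all desert regions and 19.2% in clusters of 10 or more. Its H3K4me1 folds ranged from 2.21 at chr15:39180843-39181595 (list 2) to 12.6 at chr15:39213154-39214199 (list 1). The promoter of LOC105370780 printed above lies in its region chr15:39171795-39173728, with H3K4me1 folds of 7.20 and 8.68 and Pol II folds of 9.29 and 9.89. Another 5 regions of the cluster had a Pol II peak in 1 list only.

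**Figure D3:**
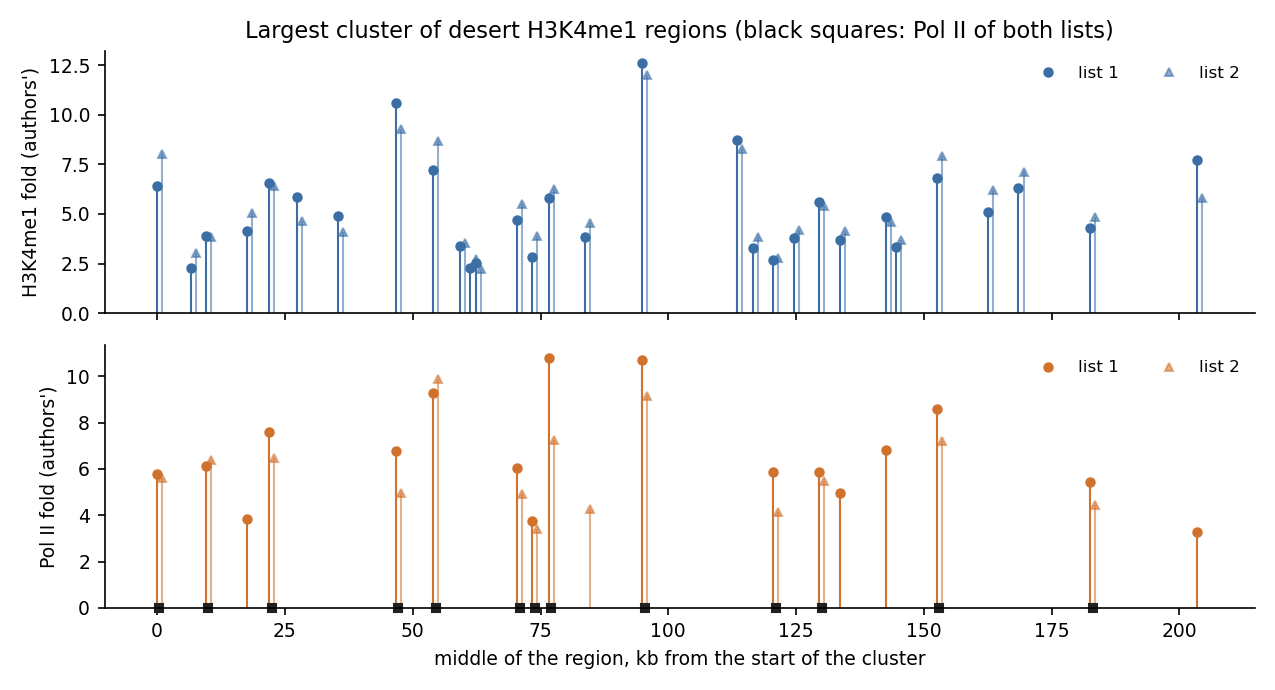
The 30 H3K4me1 regions of the largest cluster, by kb from its start, with the authors' fold enrichment of H3K4me1 (top) and Pol II (bottom) in each list. Black squares mark the 13 regions with Pol II of both lists, which are spread along the 204 kb.

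The next clusters in size held 24 regions between DUSP4, a MAP kinase phosphatase, and SARAF (4 with Pol II), then 22 and 21 between TBL1XR1 and KCNMB2 (9 and 4 with Pol II). The desert between CRYBA4 and MN1 held clusters of 21 and 18 regions, of which 5 and 7 had Pol II. A cluster of 17 between TNC, a matrix glycoprotein, and PAPPA had Pol II on 8 and held the whole lncRNA LOC105376235. A cluster of 17 between USP24 and PLPP3 had Pol II on 2 and overlapped no annotated gene. These counts stand beside a share of 19.2% with Pol II in all clusters of 10 or more.

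Of 708 deserts, 409 held at least 1 H3K4me1 region and 299 held none. The regions were unevenly spread: 70 deserts held 50% of them, and 107 deserts with 20 or more held 3891. The deserts without regions were shorter, with a median length of 307 kb against 545 kb, although 55 of them exceeded 1 Mb.

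The richest desert lay between CITED2, a transcriptional coregulator, and the model LOC124901415, with 83 regions in 1810 kb. Pol II was on 23 of them (27.7%), against 13.7% of all desert regions. The MYC to GSDMC desert followed with 80 (17 with Pol II), and the desert between ZEB2, a zinc finger repressor, and the activin receptor gene ACVR2A with 75 (8 with Pol II). Then came RFPL4B to MARCKS with 71 regions (19 with Pol II), ARRDC3 to NR2F1, an orphan nuclear receptor, with 68 (12), and SLC4A3 to the ephrin receptor gene EPHA4 with 67 (6). AGA to TENM3 held 67 (6), TBL1XR1 to KCNMB2 66 (16), CRYBA4 to MN1 63 (19) and PCDH7 to ARAP2 61 (6). Per Mb the 10 ranged from 14.0 in the PCDH7 desert to 102 in the CRYBA4 to MN1 desert, which also had the highest Pol II share of the 10, at 30.2%.

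**Figure D4:**
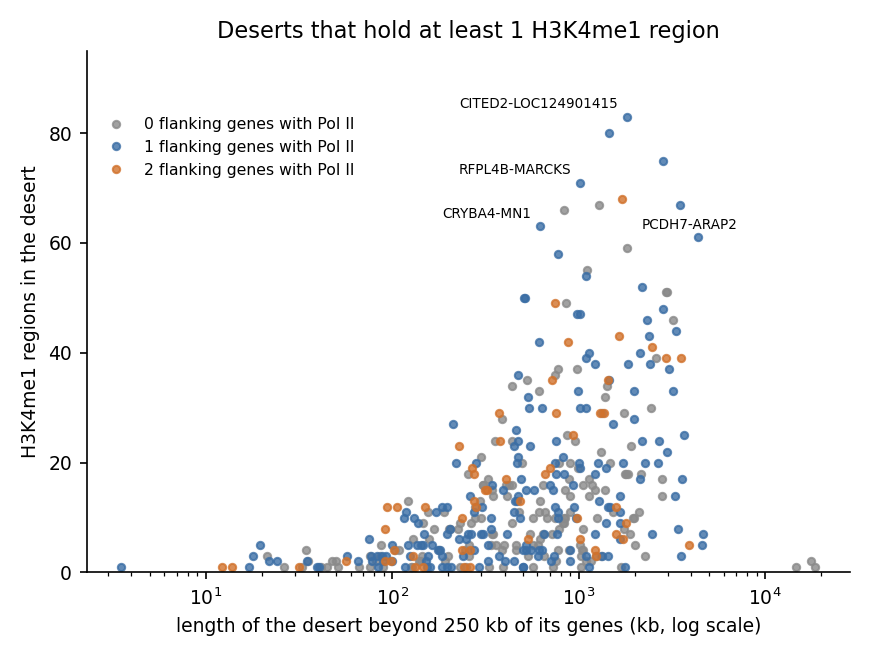
H3K4me1 regions in each of the 409 deserts that hold any, against the length of the desert beyond 250 kb of its genes (kb, log scale), coloured by how many flanking genes had Pol II. The richest hold 61 to 83 regions at lengths from 618 kb for CRYBA4 to MN1 to 4360 kb for PCDH7 to ARAP2.

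Genes at the borders of deserts with H3K4me1 regions had Pol II at an end at a share close to that of protein-coding genes in general. Pol II of both lists lay within 1 kb of an end of 270 of the 748 flanking genes (36.1%), against 39.4% of all 19974 protein-coding genes. H3K4me1 did so at 64.3%, against 63.9% of all. The share with Pol II was 43.1% for deserts of 20 or more regions, 33.8% for 5 to 19, 35.1% for 1 to 4 and 21.7% for deserts without any. The RefSeq table gives no strand, so both ends of a gene were used.

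Deserts whose flanking genes had Pol II held more H3K4me1 regions per Mb, while the share of those regions with Pol II was nearly level. With 0, 1 and 2 flanking genes bearing Pol II, there were 6.88, 11.3 and 17.2 desert regions per Mb. Without the peak-free stretches these became 17.7, 19.5 and 23.6. The share of those regions with Pol II was 13.1%, 14.4% and 13.0%.

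Regions were also split by whether their nearest protein-coding gene had Pol II at an end. Within 10 kb of a gene, 33.5% of H3K4me1 regions had Pol II where the gene had it and 16.9% where it did not, a difference of 16.6 points. At 10 to 50 kb the difference was 6.67 points, at 50 to 100 kb 3.52 and at 100 to 250 kb 3.95. In deserts it was 1.27 points at 250 to 500 kb (15.8% against 14.5%), -1.52 at 500 to 1000 kb (12.0% against 13.5%) and 3.46 beyond 1000 kb (10.8% against 7.30%). The Wilson intervals of both shares overlapped in each of the 3 desert bands. These bands were chosen after the data were seen, and the change with distance was not tested.

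Among gene lists chosen with general knowledge of desert borders and earlier results in view, many genes bordered a desert of any kind. These were 68 of 87 genes of neuronal adhesion and synapse, 62 of 116 developmental transcription factors, 21 of 78 secreted ligands, 15 of 98 matrix and cytoskeleton genes and 13 of 46 immediate early and AP-1 genes. For retinal pigment epithelium function it was 1 of 37 genes, and for all protein-coding genes 1256 of 19974. A desert with H3K4me1 regions was bordered by 51 of the 68 neuronal genes, 36 of the 62 transcription factors, 16 of the 21 ligands, 10 of the 15 matrix genes, 13 of the 13 immediate early genes and 0 of the 1 pigment epithelium gene. Over all protein-coding genes this was 748 of 1256 (59.6%). Pol II at an end was found for 6 of the 51 neuronal genes, 8 of the 36 transcription factors, 3 of the 16 ligands, 4 of the 10 matrix genes and 9 of the 13 immediate early genes, against 270 of the 748 (36.1%).

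Several of these genes bordered many regions whether or not they had Pol II. Some of them shared a desert or faced a gene with Pol II across it. SOX9, a regulator of cartilage and other lineages, had Pol II and 40 regions in its deserts, 7 with Pol II. SPRY2 had Pol II and 57 regions, 7 with Pol II. ZEB2, with 75 regions, and HAS2, a hyaluronan synthase with 51, lacked such Pol II. SLITRK1, a synaptic adhesion gene, had 71 regions, 7 with Pol II, and no Pol II of its own, and TNC had Pol II and 32 regions, 9 with Pol II. The desert between SPRY2 and SLITRK1, with 37 regions, is counted for both genes. ACVR2A, across the desert from ZEB2, had Pol II, as did ZHX2, across a HAS2 desert of 30 regions. Over all desert regions the share with Pol II was 13.7%.

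Although far from protein-coding genes, many desert regions lay in non-coding genes. LncRNA models overlapped 2107 (34.5%) and covered 18.2% of the desert span, and only 87 regions were more than 250 kb from every annotated gene of any type. Pol II was found on 15% of regions that overlapped an lncRNA and on 13.0% of the rest. Within 2 kb of an lncRNA end the share was 20.9% (90 of 431), and more than 2 kb from every annotated gene it was 12.9% (484 of 3766).

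Both marks in both lists, within 1 kb of the same end, were found at 48 of 4038 non-coding genes and pseudogenes in deserts (1.19%). Of the 48, 39 were lncRNAs, or 1.97% of the 1982 in deserts, and non-coding genes elsewhere were not counted. By mean percentile of −log10 q, not by fold, the strongest Pol II of the 48 was at LOC105376235. Its Pol II folds were 13.3 and 11.1 and its H3K4me1 folds 4.19 and 5.24. That peak lies at the 3′ end of the model, in chr9:115671704-115674144. At its promoter, printed above, the region chr9:115595948-115596977 had Pol II folds of 6.24 and 3.78 and H3K4me1 folds of 2.44 and 2.94.

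LINC02225, between ACTBL2 and PLK2, had Pol II folds of 13.7 and 9.43, and LOC105378027, in the CITED2 desert, 13.4 and 9.21. LOC105379082, between ARRDC3 and NR2F1, had 11.6 and 10.8, and the 5S ribosomal RNA pseudogene RNA5SP38 had 11.0 and 8.56. At the LINC01638 promoter, in the CRYBA4 to MN1 desert, Pol II folds were 7.68 and 6.90 over H3K4me1 folds of 3.85 and 4.37. The LINC02226 promoter, with 31 CpG dinucleotides, overlaps that of the opposite-strand MIR4458HG. Both lie in 1 region with Pol II folds of 5.58 and 4.66 and H3K4me1 folds of 9.81 and 8.90. The LOC105369165 promoter had Pol II folds of 7.24 and 7.44 over H3K4me1 folds of 6.80 and 9.52.

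Of 1558 miRNA hairpins in the RefSeq sequence table on these chromosomes, 83 lay in deserts, and 14 were within 5 kb of a desert H3K4me1 region, though none of the 83 overlapped one. In the RefSeq gene table, 4 desert regions overlapped a miRNA gene, and none of these 4 had Pol II of both lists. Those of miR-221 and miR-222 and those of let-7c and miR-99a are described, chosen after their surroundings were seen. Their mature sequences are given with the seed, bases 2 to 8, in capitals, because the first 2 share a seed and lie in 1 desert.
hsa-miR-221-3p, chrX:45746180-45746202, minus strand: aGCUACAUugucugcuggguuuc
hsa-miR-222-3p, chrX:45747036-45747056, minus strand: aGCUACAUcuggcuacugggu
hsa-let-7c-5p, chr21:16539838-16539859, plus strand: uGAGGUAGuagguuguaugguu
hsa-miR-99a-5p, chr21:16539101-16539122, plus strand: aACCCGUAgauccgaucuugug

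Within 50 kb of the MIR221 hairpin, in the desert between DIPK2B and KRABD4, lay 14 H3K4me1 regions, and 7 of them had Pol II in both lists. The share with Pol II was 22.2% for desert regions on X and 13.7% for all desert regions. The X share includes this desert, which held 18 of the 22 regions with Pol II on X. The nearest of the 14, chrX:45742329-45743581, was 2575 bp away, with H3K4me1 folds of 6.0 and 5.22 and Pol II folds of 3.54 and 3.63. On the other side chrX:45750594-45750978 was weaker, with H3K4me1 folds of 2.06 and 2.46 beside Pol II folds of 3.05 and 2.21. Over all desert regions with Pol II, the median Pol II folds were 7.05 and 6.15. The strongest Pol II of the group was 35.2 kb away, at chrX:45709840-45710919, with folds of 9.51 and 8.92.

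**Figure D5:**
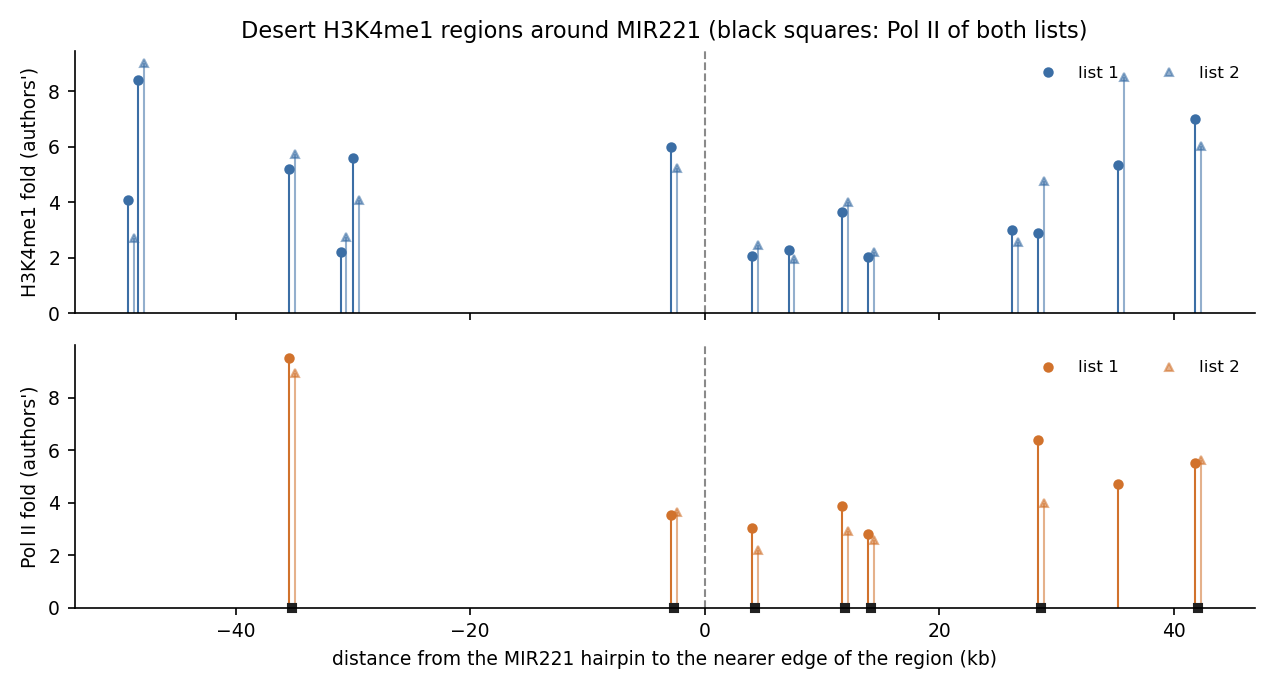
The 14 desert H3K4me1 regions within 50 kb of the MIR221 hairpin (dashed line), by distance in kb to their nearer edge, lower coordinates to the left, with the authors' fold of H3K4me1 (top) and Pol II (bottom) in each list. Black squares mark the 7 regions with Pol II of both lists, of which the one 35.2 kb to the left has the highest Pol II folds.

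Around let-7c and miR-99a, between USP25 and CXADR, 7 desert regions lay within 50 kb and 1 had Pol II in both lists. On chromosome 21 as a whole 24.2% of desert regions had Pol II (23 of 95). Of those 23, 17 lay in another desert, between LOC124905050 and HEMK2, which held 54 regions. The nearest of the 7, chr21:16541232-16541870, was 1320 bp from the MIRLET7C hairpin and 2062 bp from MIR99A, with H3K4me1 folds of 3.98 and 3.07 and no Pol II peak. The 1 with Pol II, chr21:16587807-16588901, had H3K4me1 folds of 9.84 and 10.6 and Pol II folds of 5.93 and 8.34.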

How the data were processed

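CUT&Tag peak lists of H3K4me1 and serine 5-phosphorylated Pol II from hTERT-RPE1 cells were analysed as deposited. The authors merged libraries by R number, per the file names, and gave each peak a fold enrichment (a ratio), a −log10 q value and another value, the summit's offset, in the deposited 10-column lists. The columns carry no header, so these meanings were taken from the layout of the format and the values. The submitters' processing notes name hg38, BWA, SICER and deepTools without roles; the peak caller, threshold and control were not given in the sources used here. Read depth is unknown.

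Peaks of both lists of a target were merged where they overlapped by at least 1 bp, and intervals that only touched were kept apart. A merged interval with a peak of each list was a region, giving 104482 for H3K4me1 and 30981 for Pol II. Distances were taken to 19974 protein-coding genes of RefSeq (GRCh38.p14), which may include models at coordinates of alternative scaffolds. The end of a chromosome was the last peak or gene end. Neighbours less than 20 kb apart were joined into clusters. Of several peaks in a region the one with the highest −log10 q gave its values.

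Lists were compared by exact permutation tests, and shares have 95% Wilson intervals, which cover counting error only. Since the origin of the replicates is not stated, p-values measure only the spread between lists, which may be technical. Members, gene lists and tests were chosen with earlier results of these data known. Named were the 10 richest deserts and clusters, the 10 regions strongest in each mark, farthest and widest, the 5 non-coding genes with the strongest Pol II, the first 5 flanking genes of each list (some are left out here) and 3 regions on each side of the limit. Strength in a mark was ranked by the mean percentile of −log10 q over its lists. The promoters and miRNAs were picked after their values were seen. Overlap, distance and cluster functions were tested on simulated intervals. Python 3 with numpy, pandas and scipy was used. Alternatives changed the distance, the lists, peak strength, overlap, gene types and cluster gap.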

Additional observations from a re-analysis of the deposited data

How the results depend on the processing

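The number of desert regions (6110) was 13164 at 100 kb, 2537 at 500 kb, 621 at 1000 kb, 2970 with peaks above the median −log10 q only, and 87 when genes of any type counted; with 1 list it was 7043 to 7285. The share with Pol II (13.7%) was 18.1% to 20.8% with 1 Pol II list, 7.59% with above-median Pol II peaks, 15.6% at 100 kb, 11.9% at 500 kb and 12.9% for regions over 2 kb from any gene. The difference from other H3K4me1 regions kept its sign in all 5 alternatives, from -15.9 to -8.52 points, the latter against intergenic regions; the mean over 4 classes of strength, added after seeing the data, was -13.7. The share in clusters of 3 or more (60.1%) was 37.8% with a gap of 10 kb, 82.9% with 50 kb, 34.8% with above-median peaks and 64.6% to 66.0% with 1 list. Density rose from 9.58 to 19.2 per Mb without peak-free stretches, by construction, and was 11.0 to 11.4 with 1 list. Flanking genes with Pol II (36.1%) were 39.3% to 42.1% with 1 list, against 43.7% and 47.4% of all protein-coding genes in lists 1 and 2, and 37.6% without LOC models; these were added after seeing the data. With the replicate block, lists of the same R number compared within it, the difference in the share of peaks in deserts was again 2.56 points (2.36 and 2.76, exact sign-flip p = 0.5, the smallest possible); the labels do not say that the number pairs the libraries. That difference was 5.08 points at 100 kb, 1.03 at 500 kb, 2.40 with above-median peaks and 2.32 by bases covered. Except where the construction is named, the cause of these changes was not tested. Without counts, no detection limit could be set.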

Other observations

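Seen from Pol II, 991 regions of both lists lay in deserts, and 839 of them (84.7%, 95% Wilson interval 82.3 to 86.8) were on an H3K4me1 region, against 87.8% elsewhere. Another 141 were on no H3K4me1 peak of either list. Ranked by −log10 q, the first 5 of these were chr3:93470362-93470810 (Pol II folds 33.7 and 25.8), chr17:22521207-22521666 (42.9 and 34.4), chr4:49709144-49711878 (13.1 and 9.84), chr5:49601224-49602897 (13.5 and 12.7) and chr10:41859276-41860698 (22.7 and 21.7). None of the 5 overlapped an annotated gene. No genome sequence was used, so the DNA under these 5 was not examined. Whether their high folds reflect bound Pol II was not tested. The 141 as a set had median Pol II folds of 5.92 and 5.98, against 7.02 and 6.03 for the 839 on an H3K4me1 region. The highest Pol II folds on a desert H3K4me1 region were 21.9 in list 1 and 15 in list 2.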
